A study of Mus musculus with 6 samples.

Results

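The Rab genes of the mouse were examined for open chromatin at their ends in pancreatic islets. They were taken by symbol, as protein-coding genes named Rab followed by a digit, which gave 69 of the 21887 protein-coding genes on the nuclear chromosomes of GRCm38. Of these, 59 encode Rab GTPases and 10 encode partner proteins whose symbols begin in the same way, such as Rab11fip1 to Rab11fip5. Chromatin was profiled by ATAC-seq, an assay that reads out accessible DNA by where a transposase can cut and tag it. There were 6 libraries, 2 in each of 3 groups, all from islets of 16-week-old mice infected ex vivo for 48 h with an adenovirus, a virus used here as a gene carrier. Islets of wildtype mice received Ad-GFP (control-GFP). Islets of βRicKO mice, a beta cell knockout of Rictor, a core component of mTORC2 kinase, received Ad-GFP (knockout-GFP) or Ad-Acsl4, which carries a fatty acid activating enzyme (knockout-Acsl4). All 3 groups thus carried a virus. The labels name neither the Cre line nor the sex. They leave unsaid if islets were pooled over mice or if 1 mouse gave both libraries of a group, so any spread between libraries may be technical. Whole islets were used, and a beta cell knockout leaves Rictor in the other islet cells.

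Rab proteins are small GTPases that sit on the membranes of particular organelles and recruit tethers, motors and other effectors when bound to GTP. Guanine nucleotide exchange factors (GEFs) switch them on, and GTPase-activating proteins (GAPs) switch them off. Rab3 and Rab27 proteins act on secretory granules, including insulin granules in beta cells, while most other Rabs serve steps that all cells use, such as transport from the ER to the Golgi, endocytosis and recycling. A gene was called marked in a library when a peak of that library's list overlapped the 1000 bp on either side of either end of the gene. A peak value is called a score here and was read as a −log10 q-value. It ranks a peak only within its own list, so a score percentile, the share of the list at or below that peak, is given beside it.

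Promoter sequences show where these peaks lay. The 250 bases before the annotated start are printed 5′ to 3′ on the gene's strand, from RefSeq for GRCm38.p6. Shown are Rab8a, Rab2b, Rab10, Rab3a, Rab3d and Rab7. Rab8a, Rab2b and Rab10 led the Rab genes by number of libraries and, among the 6 genes tied at 4 libraries, by mean score percentile. Rab30, level with Rab8a, has no entry in the promoter set used here. Rab3a and Rab3d were the marked granule Rabs with such an entry. Rab7, chosen after its values were seen, is shown because it was marked in none. Capitals mark the CCAAT box and the GC box GGGCGG, read on either strand (ATTGG and CCGCCC are their reverse complements).
Rab8a (chr8:72160950-72161199, + strand): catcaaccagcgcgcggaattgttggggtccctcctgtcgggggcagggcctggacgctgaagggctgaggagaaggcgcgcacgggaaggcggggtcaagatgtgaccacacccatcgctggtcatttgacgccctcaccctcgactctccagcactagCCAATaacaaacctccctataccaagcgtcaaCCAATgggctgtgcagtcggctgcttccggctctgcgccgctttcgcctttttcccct
Rab2b (chr14:52279396-52279645, - strand): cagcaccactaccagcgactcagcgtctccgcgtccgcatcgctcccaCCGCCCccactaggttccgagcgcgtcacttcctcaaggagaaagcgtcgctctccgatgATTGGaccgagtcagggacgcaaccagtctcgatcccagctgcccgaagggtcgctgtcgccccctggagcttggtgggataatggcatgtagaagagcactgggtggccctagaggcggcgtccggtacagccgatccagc
Rab10 (chr12:3309970-3310219, - strand): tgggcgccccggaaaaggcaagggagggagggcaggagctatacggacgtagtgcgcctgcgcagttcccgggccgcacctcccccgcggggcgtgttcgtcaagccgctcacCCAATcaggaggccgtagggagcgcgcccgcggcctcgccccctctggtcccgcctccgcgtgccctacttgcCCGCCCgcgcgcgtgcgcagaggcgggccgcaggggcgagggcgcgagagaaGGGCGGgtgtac
Rab3a (chr8:70754453-70754702, + strand): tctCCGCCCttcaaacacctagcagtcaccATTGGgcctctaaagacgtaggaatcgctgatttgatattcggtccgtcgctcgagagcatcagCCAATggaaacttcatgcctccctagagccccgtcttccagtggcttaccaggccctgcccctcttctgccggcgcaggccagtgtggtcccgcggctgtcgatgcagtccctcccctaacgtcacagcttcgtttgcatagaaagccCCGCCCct
Rab3d (chr9:21918184-21918433, - strand): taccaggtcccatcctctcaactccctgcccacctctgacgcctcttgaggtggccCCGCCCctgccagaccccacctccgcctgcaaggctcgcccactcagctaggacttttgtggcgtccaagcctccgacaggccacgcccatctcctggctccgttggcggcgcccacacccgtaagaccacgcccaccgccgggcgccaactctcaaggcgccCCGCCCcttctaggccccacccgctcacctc
Rab7 (chr6:88045271-88045520, - strand): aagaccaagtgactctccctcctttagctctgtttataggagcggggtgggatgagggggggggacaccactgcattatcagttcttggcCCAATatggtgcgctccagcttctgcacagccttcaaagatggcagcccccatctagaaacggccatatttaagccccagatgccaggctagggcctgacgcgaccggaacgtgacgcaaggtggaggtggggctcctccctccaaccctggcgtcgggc
The Rab8a stretch has CCAAT beginning at 90 and 58 bases before the start, and the peaks of 3 libraries (control-GFP 1, knockout-GFP 1 and knockout-GFP 2) covered all 250 bases shown. The peak of control-GFP 2 covered the 183 bases nearest the start, and that of knockout-Acsl4 2 covered 190 bases and ended 61 bases before it. At Rab10, control-GFP 1 and knockout-GFP 1 covered all 250 bases, knockout-GFP 2 covered 176 and knockout-Acsl4 1 covered 138. At Rab2b, the peaks covered 193, 50, 80 and 148 of the bases shown in control-GFP 1, control-GFP 2, knockout-GFP 1 and knockout-GFP 2, and each crossed the start into the gene. The Rab3a peak of control-GFP 1 covered 186 of its bases and the Rab3d peak of knockout-GFP 2 covered 104. Rab3a and Rab7 each have another promoter entry, which is not shown. For Rab7 that stretch (chr6:88045018-88045267) has 2 GC boxes, while the stretch shown has none.

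The lists differed in length and in what they held, which touches every count below. They had 525 (knockout-Acsl4 1) to 5874 (knockout-Acsl4 2) peaks, and their read depth is unknown. Peaks at the end of any protein-coding gene made up 70.9% of the list of control-GFP 1, 67.2% of knockout-GFP 1 and 75.5% of knockout-GFP 2. They made up 35.8% of knockout-Acsl4 1, 21.7% of control-GFP 2 and 5.29% of knockout-Acsl4 2. After a shift of 100000 bp the shares were 6.61%, 6.78%, 7.49%, 4%, 3.81% and 3.69% in the same order. Rictor held no peak in any library, so the knockout is not checked by these lists. Acsl4 itself contained 7 peaks in control-GFP 1, 6 in knockout-GFP 1 and 0 in the 4 others, so neither library labelled knockout-Acsl4 had one. This goes against the labels, and every group name below means the libraries labelled so. Of 12 beta cell markers, Mafa and Nkx6-1 were marked in control-GFP 1 and knockout-GFP 2. That is 16.7% in each, near the 16.7% and 17.3% of all genes there. In the other 4 libraries 0 of 12 were marked, against 1.02% to 8.20% of all genes, so Ins1, Ins2 and Pdx1 had no gene-end peak anywhere. None of 23 markers of other endocrine, exocrine, endothelial, stromal and immune cells was marked in any library, where 24.5% of all genes were marked in at least 1. These counts do not tell cell types apart.

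Rab genes were marked at a higher share than protein-coding genes in general in each of the 6 libraries. In control-GFP 1, 24 of 69 were marked (34.8%, 95% exact interval 23.7 to 47.2), against 16.7% of all protein-coding genes. Knockout-GFP 2 marked 29 (42.0%, 30.2 to 54.5), against 17.3%, and knockout-GFP 1 marked 16 (23.2%, 13.9 to 34.9), against 8.20%. The other 3 libraries marked few members. Control-GFP 2 marked 5 (7.25%, 2.39 to 16.1) against 2.00% of all genes, knockout-Acsl4 1 also marked 5 against 1.02%, and knockout-Acsl4 2 marked 2 (2.90%, 0.353 to 10.1) against 1.58%, a share whose interval holds the background. The intervals cover counting error over genes only.

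**Figure D1:**
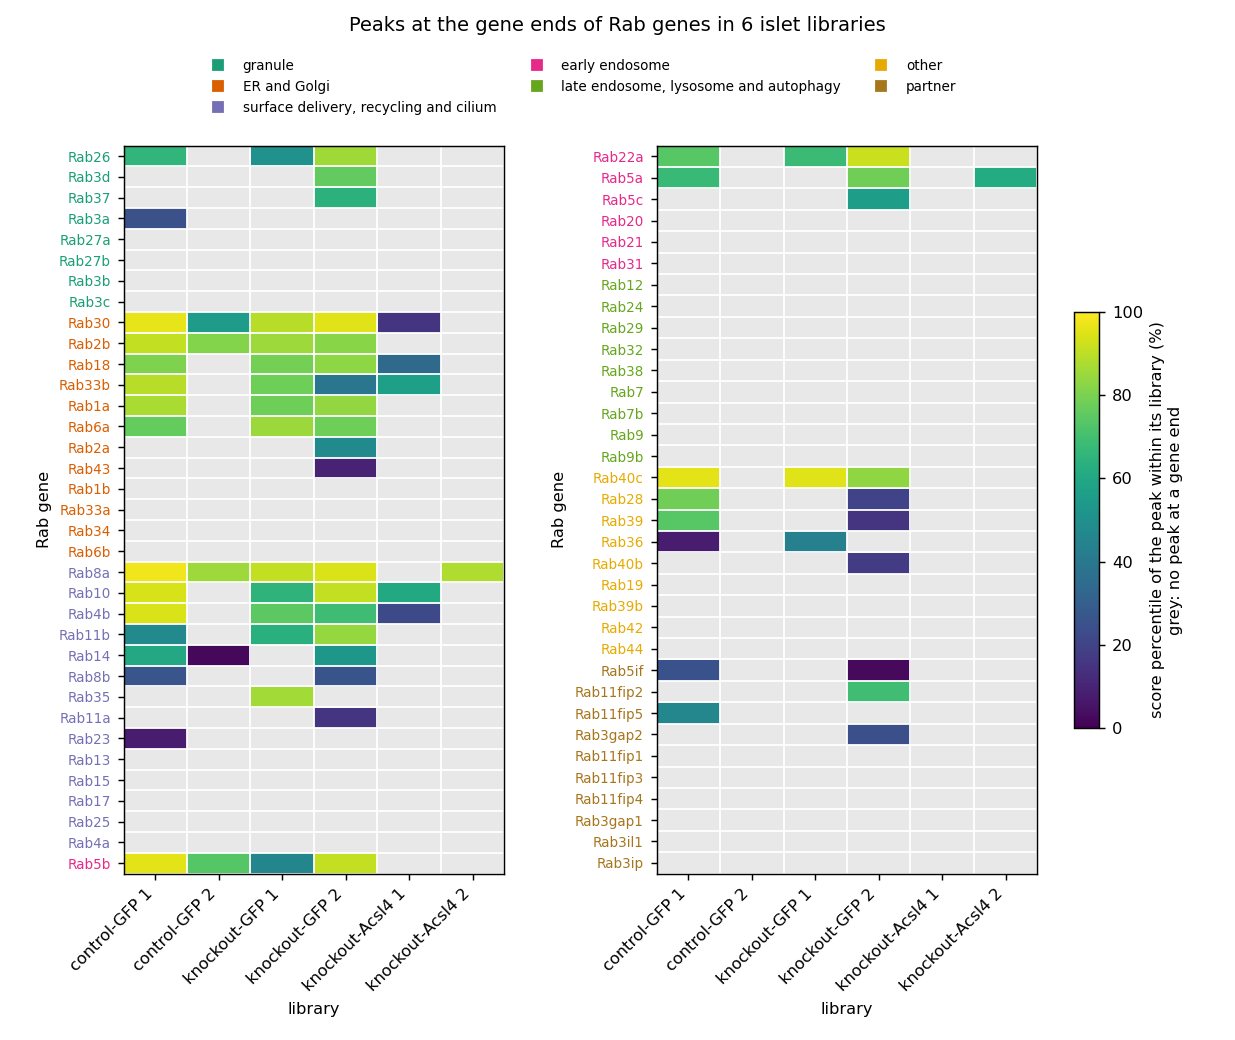
Peaks at gene ends of the 69 Rab genes (rows, symbols coloured by class) in 6 libraries (columns); colour gives the score percentile of the highest peak within its library in percent, and grey means no peak at a gene end. The 16 genes marked in 3 or more libraries all have a peak in control-GFP 1 and knockout-GFP 2, and the late endosome, lysosome and autophagy class is grey throughout.

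Counted over libraries, 34 of 69 Rab genes were marked in at least 1 library, against 24.5% of all genes, and 35 in none. In at least 3 libraries 16 were marked (23.2%), against 6.52% of all genes, and in at least 4 libraries 8 (11.6%), against 1.62%. All 16 were GTPases, and none of the 10 partner genes reached 3 libraries. Each of the 16 was marked in both control-GFP 1 and knockout-GFP 2, 14 in knockout-GFP 1, 5 in control-GFP 2, 5 in knockout-Acsl4 1 and 2 in knockout-Acsl4 2. Of the 34 marked Rab genes, 13 were marked in a single library.

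Rab8a, which carries vesicles from the Golgi to the plasma membrane and into the cilium, was marked in 5 libraries. Its scores were 38.0 in control-GFP 1, 4.87 in control-GFP 2, 9.93 in knockout-GFP 1, 18.4 in knockout-GFP 2 and 3.32 in knockout-Acsl4 2, with no peak in knockout-Acsl4 1. Their percentiles ran from 85.3 to 98.0, so Rab8a stood in the upper part of each list that held it. The stretch common to all 5 peaks was chr8:72161017-72161139, 123 bp long. Rab30, a Golgi Rab, was also marked in 5, with scores of 26.1 and 2.77 in control-GFP 1 and 2, 9.17 and 19.4 in knockout-GFP 1 and 2, and 2.13 in knockout-Acsl4 1. Here the percentile ranged from 15.2 in knockout-Acsl4 1 to 96.4 in control-GFP 1. The common stretch of Rab30 was chr7:92741471-92741557. These are the only Rab genes with a peak in 5 libraries, and neither was marked in all 6.

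Rabs of the ER and Golgi were marked at 50% of genes or more in control-GFP 1, knockout-GFP 1 and knockout-GFP 2. Of 12 genes, 6 were marked in control-GFP 1, 6 in knockout-GFP 1, 8 in knockout-GFP 2, 3 in knockout-Acsl4 1, 2 in control-GFP 2 and 0 in knockout-Acsl4 2. The shares of 50%, 50%, 66.7%, 25%, 16.7% and 0% stand against 16.7%, 8.20%, 17.3%, 1.02%, 2.00% and 1.58% of all genes in the same order. Rab2b, which acts between the ER and the Golgi, had scores of 16.5, 4.19, 8.09 and 11.4 in control-GFP 1, control-GFP 2, knockout-GFP 1 and knockout-GFP 2, with percentiles of 81.5 to 90.7. Rab18, a Rab of the ER and lipid droplets, had scores of 11.2, 6.97, 11.6 and 2.97 in control-GFP 1, knockout-GFP 1, knockout-GFP 2 and knockout-Acsl4 1. Rab33b, a Golgi Rab that binds the autophagy protein Atg16l1, was marked in the same 4 libraries as Rab18, with scores of 15.6, 6.79, 5.22 and 4.61. Rab1a, the Rab of ER-to-Golgi transport, and Rab6a, which works in retrograde transport to and through the Golgi, were marked in the 3 richer lists (control-GFP 1, knockout-GFP 1, knockout-GFP 2). Rab1a scored 14.2, 6.79 and 11.9 there, and Rab6a scored 10.1, 8.02 and 10.5. Rab2a and Rab43 were marked in knockout-GFP 2 only. Rab1b, Rab6b, Rab33a and Rab34 had no gene-end peak in any list.

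Among 14 Rabs of surface delivery, recycling and the cilium, 7 were marked in control-GFP 1, 7 in knockout-GFP 2, 5 in knockout-GFP 1, 2 each in control-GFP 2 and knockout-Acsl4 1, and 1 in knockout-Acsl4 2. The shares were 50% (against 16.7% of all genes), 50% (17.3%), 35.7% (8.20%), 14.3% (2.00% and 1.02%) and 7.14% (1.58%). Rab10, which moves vesicles with glucose transporters to the plasma membrane, scored 20.4, 5.34, 15.2 and 5.02 in control-GFP 1, knockout-GFP 1, knockout-GFP 2 and knockout-Acsl4 1. Rab4b, a Rab of rapid endosomal recycling, scored 20.9, 6.33, 8.75 and 2.45 in the same order. Its percentile was 94.3 in control-GFP 1 and 21.9 in knockout-Acsl4 1. Rab11b, a Rab of the recycling endosome, scored 5.67, 5.21 and 12.0 in the 3 richer lists. Rab14, which acts between the Golgi and endosomes, scored 7.00 in control-GFP 1, 1.43 in control-GFP 2 and 6.64 in knockout-GFP 2, the 1.43 standing at percentile 2.09, close to the lowest score of its list. Rab8b was marked in 2 libraries and Rab35, Rab11a and Rab23 in 1 each. Rab4a, Rab13, Rab15, Rab17 and Rab25 were marked in none, among them the epithelial Rab17 and Rab25.

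Of 7 early endosome Rabs, 4 were marked in knockout-GFP 2, 3 in control-GFP 1, 2 in knockout-GFP 1, 1 each in control-GFP 2 and knockout-Acsl4 2, and 0 in knockout-Acsl4 1. The shares were 57.1% (against 17.3% of all genes), 42.9% (16.7%), 28.6% (8.20%), 14.3% (2.00% and 1.58%) and 0% (1.02%), each over 7 genes. All 3 Rab5 genes, whose products organise fusion of early endosomes, were marked in some library. Rab5b scored 24.5, 3.77, 3.95 and 15.0 in control-GFP 1, control-GFP 2, knockout-GFP 1 and knockout-GFP 2. Rab5a scored 8.17 in control-GFP 1, 10.6 in knockout-GFP 2 and 2.15 in knockout-Acsl4 2, and Rab5c scored 6.80 in knockout-GFP 2. Rab5a and Rab8a were the only members marked in knockout-Acsl4 2. Rab22a, another endosomal Rab, scored 9.40, 5.65 and 15.9 in the 3 richer lists, while Rab20, Rab21 and Rab31 were not marked.

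No Rab of the late endosome, lysosome and autophagy class was marked in any library, and neither were 75.5% of all protein-coding genes. The class held 9 genes, namely Rab7, the main Rab of traffic to the lysosome, Rab7b, Rab9, which returns cargo from late endosomes to the Golgi, its paralog Rab9b, Rab12, the autophagy Rab24, Rab29, and Rab32 and Rab38, known from melanosome formation. A count of 0 of 9 allows a share of up to 33.6% (exact interval). The share of all genes in each library, 1.02% to 17.3%, lies within that interval. General trafficking Rabs as a whole were marked at 39.2% (interval 25.8 to 53.9) in control-GFP 1 and 45.1% (31.1 to 59.7) in knockout-GFP 2. These shares include the 9 unmarked genes and are lower for it, so the overlap of the intervals does not compare separate sets. The difference was not tested. The count was 0 of 9 in each library at windows of 500 and 3000 bp too. It is an absence from the called lists, and weaker openness below the calling threshold was not measured. The 7 genes of the class with an entry in the promoter set included 4 CpG-rich ones, Rab7, Rab12, Rab24 and Rab29.

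The 9 remaining GTPases included Rab40c, which joins a cullin ubiquitin ligase. Rab40c scored 24.6, 14.4 and 11.7 in control-GFP 1, knockout-GFP 1 and knockout-GFP 2, with percentiles of 83.4 to 95.8. Its peaks were the widest of any member at up to 719 bp and lay the farthest before the start, with centres at -288 to -499.5 bases from it. Rab28, Rab39 and Rab36 were marked in 2 libraries each and Rab40b in 1. Among the partner genes, Rab5if was marked in 2 libraries with scores of 3.68 and 2.00, and Rab11fip2, Rab11fip5 and Rab3gap2, a subunit of the Rab3 GAP complex, in 1 each. Rab3gap1, its catalytic subunit, was not marked, nor were Rab3ip and Rab3il1, which encode exchange factors of Rab8 and Rab3.

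Close paralogs were often unequal. Rab8a was marked in 5 libraries and Rab8b in 2, Rab2b in 4 and Rab2a in 1, Rab11b in 3 and Rab11a in 1, Rab40c in 3 and Rab40b in 1. In other pairs one member was never marked, with Rab4b in 4 libraries and Rab4a in 0, Rab33b in 4 and Rab33a in 0, Rab1a in 3 and Rab1b in 0, Rab6a in 3 and Rab6b in 0, and Rab39 in 2 and Rab39b in 0. Rab5b and Rab5a were closer, at 4 and 3 libraries, while Rab5c had 1. Rab27a and Rab27b, and Rab9 and Rab9b, were alike in having 0. These counts order genes by how many lists called them and do not measure the size of a difference.

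Of 8 granule Rabs, 2 were marked in control-GFP 1 (Rab26 and Rab3a), 1 in knockout-GFP 1 (Rab26), 3 in knockout-GFP 2 (Rab26, Rab37 and Rab3d) and 0 in the other 3 libraries. The shares of 25%, 12.5% and 37.5% were above the 16.7%, 8.20% and 17.3% of all protein-coding genes, but each of these backgrounds lies within the exact interval of the granule share. Rab3a, the chief Rab3 of neurons and endocrine cells, scored 3.63 in control-GFP 1, at percentile 24.8. Rab3d scored 9.94 in knockout-GFP 2, at percentile 75.9. Rab26 scored 7.86, 4.34 and 12.5 in the 3 richer lists, with percentiles of 50.5 to 85.6. All 3 Rab26 peaks also lay at the end of the neighbouring gene Traf7, a ubiquitin ligase gene. Their centres were 102.5 to 127 bp from the end of Traf7 and 989 to 1013.5 bp from that of Rab26, and with a window of 500 bp Rab26 was marked in none. The Rab37 peak, with a score of 7.84 in knockout-GFP 2, was centred 106 bp from an end of Slc9a3r1 and 462 bp from that of Rab37. Without peaks shared with another gene's end, 1 granule Rab was left in control-GFP 1, 1 in knockout-GFP 2 and 0 elsewhere. Rab3b, Rab3c, Rab27a and Rab27b had no gene-end peak in any list.

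General trafficking Rabs were marked at a higher share than granule Rabs in all 6 libraries at the window of 1000 bp, but the intervals overlapped in each. In knockout-GFP 2 the direction turned at 3000 bp, with 50% of granule (4 of 8) against 45.1% of general trafficking Rabs (23 of 51), and in the better 50% of the list by score, with 37.5% (3 of 8) against 29.4% (15 of 51). The shares were 39.2% (20 of 51, 25.8 to 53.9) against 25% (2 of 8, 3.19 to 65.1) in control-GFP 1, 29.4% (15, 17.5 to 43.8) against 12.5% (1, 0.316 to 52.7) in knockout-GFP 1 and 45.1% (23, 31.1 to 59.7) against 37.5% (3, 8.52 to 75.5) in knockout-GFP 2. In the other 3 libraries no granule Rab was marked, which allows a share of up to 36.9% in each, against 5, 5 and 2 of 51 general trafficking Rabs in control-GFP 2, knockout-Acsl4 1 and knockout-Acsl4 2. The difference averaged 10.4 ± 4.64 percentage points (SD over 6 libraries). With 8 granule genes, a single gene moves their share by 12.5 points, which is more than that mean. The 6 libraries also draw on the same genes, so their common direction is not 6 separate observations. When Rab26 and Rab37 were counted as general trafficking Rabs, leaving the 6 Rab3 and Rab27 genes, the mean difference was 17.7 ± 11.6 points. At 500 bp it was 16.6 ± 10.3, and with the better 50% of each list 6.58 ± 9.20, where the SD exceeds the mean.

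**Figure D2:**
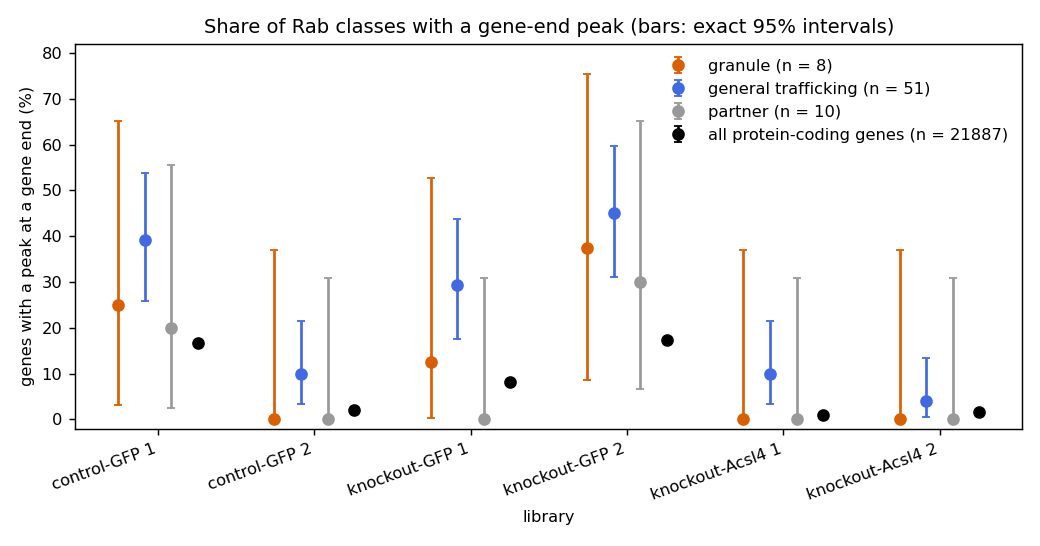
Share of genes with a peak at a gene end (y axis, percent) in each library (x axis) for granule Rabs, general trafficking Rabs, partner genes and all protein-coding genes; bars are exact 95% intervals, which cover counting error only. General trafficking Rabs lie above all protein-coding genes in each library, and the wide bars of the 8 granule Rabs overlap theirs.

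Loss of Rictor was addressed by comparing knockout-GFP with control-GFP. No Rab gene was marked in both knockout-GFP libraries and neither control-GFP library (0 of 69, against 1.04% of all genes), and none showed the reverse (0 of 69, against 0.0914%). With 2 libraries against 2, the smallest two-sided exact permutation p for a gene is 0.333, so no gene could pass a test. The knockout-only count of 0 was 10 without control-GFP 1 and 9 without knockout-GFP 1, and the control-only count was 3 without control-GFP 2. Such a count can only stay or rise when a library is left out, and the shares over all genes were not computed there. The 14 Rab genes marked in both knockout-GFP libraries were all marked in control-GFP 1 too, as were 83.7% of the 1447 genes marked in both, and 4 of the 14 were marked in control-GFP 2. Control-GFP marked 14.5 ± 13.4 members and knockout-GFP 22.5 ± 9.19 (SD, n = 2 each), a difference of 8 that is below the spread between replicates and is -1.5 without control-GFP 2. Control-GFP 1 and knockout-GFP 2, the longest lists among those rich in gene ends, allow a description with 1 library a side. They shared 20 Rab genes, with 11.6% of all genes marked in both. Rab3a, Rab23, Rab36 and Rab11fip5 were marked in control-GFP 1 only (4 of 69, 5.80%, against 5.07% of all genes). Rab2a, Rab3d, Rab5c, Rab11a, Rab37, Rab40b, Rab43, Rab11fip2 and Rab3gap2 were marked in knockout-GFP 2 only (9 of 69, 13.0%, against 5.69%). This difference has no replicate check. None of these 9 had a gene-end peak in any other list, and of the 4 only Rab36 did, in knockout-GFP 1.

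By the labels, knockout-Acsl4 against knockout-GFP addresses added Acsl4. Neither library labelled knockout-Acsl4 held a peak in Acsl4, however, while knockout-GFP 1 held 6. Rab1a, Rab2b, Rab5b, Rab6a, Rab11b, Rab22a, Rab26 and Rab40c were marked by each of the knockout-GFP libraries and missed by each knockout-Acsl4 library (8 of 69, 11.6%, against 5.79% of all genes). None had the reverse pattern (0 of 69, against 0.00914%). The 8 came from 14 Rab genes marked in both knockout-GFP libraries. That is a smaller part than over all genes, where 1267 of 1447 were missed by both knockout-Acsl4 libraries. Knockout-Acsl4 marked 3.50 ± 2.12 members (SD, n = 2). Its libraries were the shortest list and the list with the smallest share of peaks at gene ends, and with lists of equal length the count of 8 was 1, namely Rab8a, which is not among the 8. With unshared gene ends it was 4, and it rose to 22 without knockout-GFP 1 and to 13 without knockout-Acsl4 1. Leaving out a library can only keep or raise this count. The shares over all genes at these settings were not computed, so the rises are not a result about Rab genes. What the low share of gene-end peaks contributes was not tested. Rab10, Rab18, Rab30, Rab33b and Rab4b were marked in knockout-Acsl4 1, and each of these 5 was also marked in control-GFP 1 and in both knockout-GFP libraries. No Rab gene was marked in both knockout-Acsl4 libraries.

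Knockout-Acsl4 against control-GFP reuses libraries of both comparisons above and is not independent of them. Rab2b, Rab5b and Rab14 had a gene-end peak in control-GFP 1 and 2 but not in knockout-Acsl4 1 or 2 (3 of 69, 4.35%, against 1.32% of all genes), and none the reverse (0 of 69, against 0.00457%). All 3 belonged to the 5 members marked in control-GFP 2, the others being Rab8a and Rab30. These 5 were all marked in control-GFP 1 and knockout-GFP 2 as well, so none was marked in control-GFP 2 alone. The count of 3 was 17 without control-GFP 2 and 1 with unshared gene ends, where Rab2b and Rab5b drop out. Here too, leaving out a library can only keep or raise the count, and the shares over all genes were not computed.

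When each list was cut to its 525 highest scores, the ranges of the 3 groups overlapped or met in the number of marked Rab genes. It was 8 in control-GFP 1 (11.6%, against 1.91% of all genes), 3 in control-GFP 2 (4.35%, against 0.877%), 9 in knockout-GFP 1 (13.0%, against 1.90%), 5 in knockout-GFP 2 (7.25%, against 1.92%), 5 in knockout-Acsl4 1 (7.25%, against 1.02%) and 0 in knockout-Acsl4 2 (against 0.0868%). At this length knockout-GFP 2 and knockout-Acsl4 1 marked the same number, with Rab10 and Rab30 in both. Rab8a was kept in control-GFP 1, control-GFP 2, knockout-GFP 1 and knockout-GFP 2. No granule Rab remained in any list. Rab1a, Rab2b, Rab6a and Rab40c of the 8 named above for Acsl4 were then held by knockout-GFP 1 but not by knockout-GFP 2, Rab5b and Rab22a by knockout-GFP 2 but not by knockout-GFP 1, and Rab11b and Rab26 by neither.

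Peaks inside a Rab gene with none at its ends were found in a single library. In knockout-Acsl4 2, Rab1a, Rab3c, Rab8b, Rab11b, Rab27a and Rab3gap2 had such a peak (6 of 69, 8.70%, against 7.78% of all genes in that library), a share near the background. The other 5 libraries had 0. Rab3c and Rab27a, both granule Rabs, had no other peak.

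Where the start was known, the peaks sat at it. Of 81 gene-end peaks of Rab genes, 65 belonged to genes with a start and strand in the promoter set used here. All 65 lay at the start while 0 lay at the far end alone. The start base itself was covered by 39 (60%), and 61 had their centre within 250 bp of it. The median centre lay at -96.5 bases from the start, negative values lying before it. The other peaks, at Rab2a, Rab18, Rab26, Rab30, Rab36 and Rab37, could not be placed at the start or the far end. Over all 81 peaks, widths ran from 92 to 719 bp with a median of 266. Within the 3 richer lists the median Rab peak ranked above the median gene-end peak, at percentile 75.2 against 54.0 in control-GFP 1, 78.0 against 53.2 in knockout-GFP 1 and 69.5 against 51.9 in knockout-GFP 2. In knockout-Acsl4 1 it ranked lower, at 34.4 against 42.1, over 5 peaks. In all, 19 of the 81 peaks also lay at the end of another protein-coding gene, and 6 of the 34 marked genes (Rab2b, Rab4b, Rab5b, Rab6a, Rab26 and Rab37) had only such peaks. Rab2b peaks were centred 25 to 67 bp from Rab2b and 182 to 224 bp from Tox4, so the start of either gene could carry them. The peaks of Rab4b, Rab5b and Rab6a were centred 10 to 163 bp from the Rab gene and 469 to 868 bp from Mia, Pmel and Mrpl48.

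**Figure D3:**
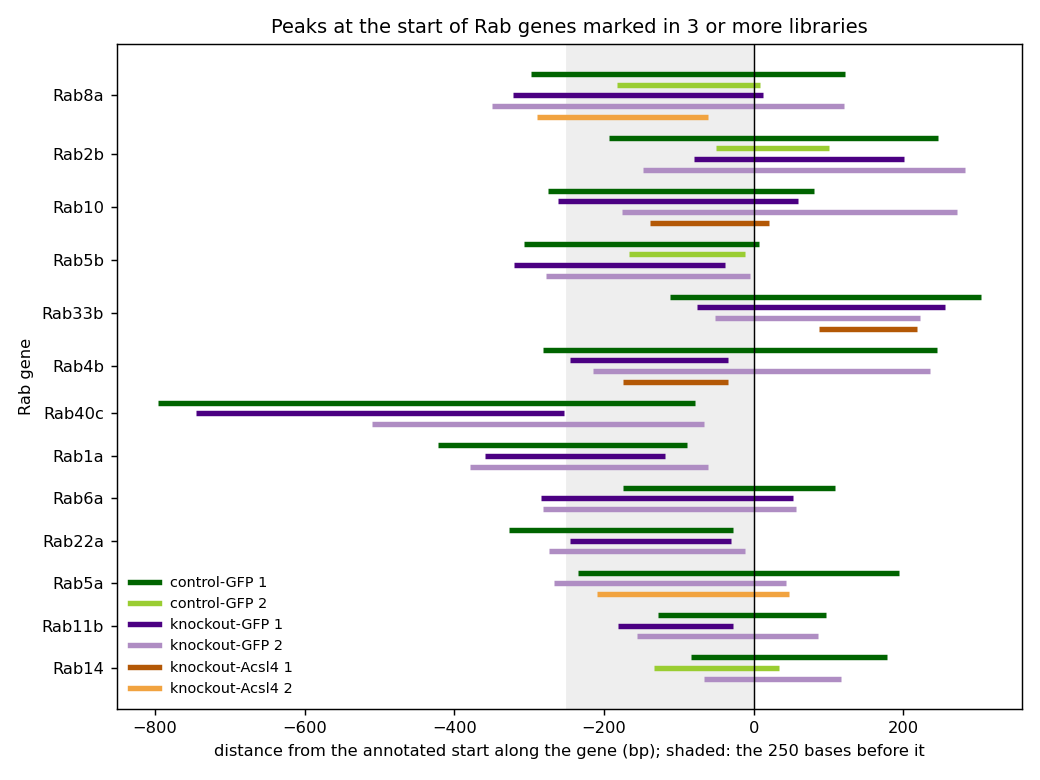
Extent of each peak along the gene (x axis, bp from the annotated start, negative before it) for the 13 Rab genes marked in 3 or more libraries that have an entry in the promoter set used (y axis), 1 line per library by colour. The shaded band is the 250 bases before the start. Peaks of different libraries overlap at each gene, and Rab40c peaks lie farthest before the start.

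Most Rab promoters were rich in CpG, the dinucleotide that marks the CpG islands of many broadly used genes. The promoter set used gave a promoter of 300 bases (250 before and 50 after the start) for 56 of the 69 genes and for 17492 protein-coding genes. The ratio of observed to expected CpG was 0.6 or more in 44 of the 56 (78.6%), against 50.9% of all genes, counting the most CpG-rich entry of a gene. It was so in 12 of 13 genes marked in 3 or more libraries, in all 15 marked in 1 or 2, and in 17 of 28 never marked. The exception was Rab5b, with a ratio of 0.596. Against genes with a CpG-rich promoter only, 19 of 44 such Rab genes (43.2%) were marked in control-GFP 1, where the background was 29.2%, 23 (52.3%) in knockout-GFP 2, where it was 31.7%, and 11 (25%) in knockout-GFP 1, where it was 15.3%. The counts were 3, 3 and 2 of 44 in control-GFP 2, knockout-Acsl4 1 and knockout-Acsl4 2, against 3.68%, 2.06% and 2.10%. The Rab share was 2.08, 2.43 and 2.83 times that of all genes in control-GFP 1, knockout-GFP 2 and knockout-GFP 1, and among CpG-rich promoters alone these 3 libraries lay closer to their background. Of 5 granule Rabs with a promoter entry, 3 were CpG-rich, against 34 of 43 general trafficking Rabs.

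**Figure D4:**
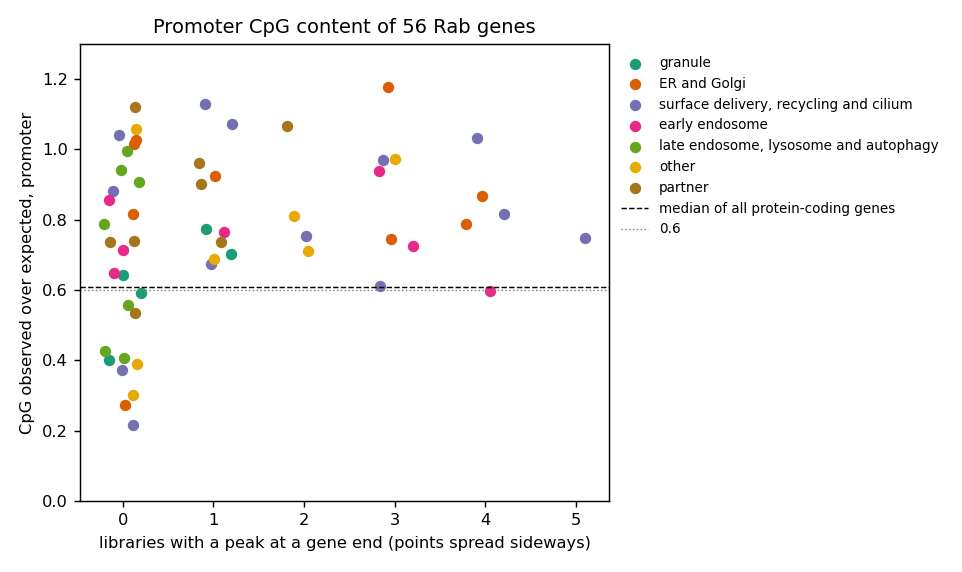
Ratio of observed to expected CpG in the promoter (y axis) against the number of libraries with a gene-end peak (x axis, points spread sideways) for 56 Rab genes, coloured by class; the dashed line is the median of all protein-coding genes, 0.61, and the dotted line is 0.6. The genes with a ratio of up to 0.591 all stand at 0 libraries.

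Short motifs were counted on both strands in the same promoter entries of 300 bases. A gene was counted when any of its entries held the motif, not only the most CpG-rich one. Genes with several entries thus had more bases searched. None of the motifs searched contains another. The CCAAT box was present in 29 of 56 Rab promoters (51.8%), against 42.3% of all genes. It was in 10 of 13 genes marked in 3 or more libraries, 10 of 15 marked in 1 or 2 and 9 of 28 never marked. The GC box GGGCGG was present in 44 (78.6%), against 49.2%. In the same order of groups it was in 10 of 13, 15 of 15 and 19 of 28, so its share did not rise steadily with the number of libraries. TATAAA was found in 5 (8.93%), against 14.8%, and all 5 were never marked. CACGTG was found in 8 (14.3%, against 8.91%), CCGGAAG in 8 (14.3%, against 12.9%), TGACGTCA in 3 (5.36%, against 2.54%), the forkhead motif GTAAACA in 2 (3.57%, against 3.45%) and the NRF1 motif in 0 (against 1.47%). A match says only that these letters are present.

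The genes that regulate Rabs or are recruited by them were examined as a list of 71. Of these, 43 were never marked, a smaller share than the 75.5% of all genes. Marked were 14 (19.7%) in control-GFP 1, 21 (29.6%) in knockout-GFP 2, 11 (15.5%) in knockout-GFP 1, 4 (5.63%) in control-GFP 2, 2 (2.82%) in knockout-Acsl4 1 and 1 (1.41%) in knockout-Acsl4 2, against 16.7%, 17.3%, 8.20%, 2.00%, 1.02% and 1.58% of all genes in that order. The share in control-GFP 1 was near its background and that in knockout-Acsl4 2 below it. The granule effectors gave 1 of 13, Rph3al (Noc2), an effector of Rab3 and Rab27 in endocrine cells, in control-GFP 1 only, and 0 of 13 in the other 5 libraries. Rims2, the granuphilin gene Sytl4 and Myrip were not marked. The general effectors gave 5, 2, 2, 7, 2 and 0 of 16 in control-GFP 1 and 2, knockout-GFP 1 and 2, and knockout-Acsl4 1 and 2, led by Golga2 (GM130, a Golgi tether) in 4 libraries and by Ehbp1, the Rab1 effector Uso1 and Erc1 in 3 each. Gdi2, which recycles Rabs from membranes, was marked in 4 libraries and Rabif in 3. Among 19 exchange factors Mon1b, part of the Rab7 exchange factor, was marked in 3 libraries, and Madd, which activates Rab3 and Rab27, in 2, with Dennd4c and Ric1. Of 15 GAPs, 7 (46.7%) were marked in knockout-GFP 1, where 8.20% of all genes were, 4 (26.7%) in knockout-GFP 2, where 17.3% were, and 2 (13.3%) in control-GFP 1, below the 16.7% of all genes. Tbc1d10a and Tbc1d10b were marked in all 3 of these libraries. Marked in knockout-GFP 1 only were Tbc1d15 (percentile 76.3), Usp6nl (49.9), Rabgap1 (12.3) and Rabgap1l (6.53). Control-GFP 2, knockout-Acsl4 1 and knockout-Acsl4 2 marked 0 of 15 GAPs, against 2.00%, 1.02% and 1.58% of all genes. Between groups, Tbc1d17 and Bicd2 were marked in both knockout-GFP libraries and neither control-GFP library (2 of 71, 2.82%, against 1.04% of all genes), and 0 the reverse. In knockout-GFP and not knockout-Acsl4 there were 6 (Gdi2, Mon1b, Tbc1d10a, Tbc1d10b, Tbc1d17 and Bicd2), 8.45% against 5.79% of all genes. In control-GFP and not knockout-Acsl4 there were 4 (Gdi2, Rabif, Erc1 and Ehbp1), 5.63% against 1.32%, with 0 in either reverse direction.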

How the data were processed

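ATAC-seq peaks were analysed in 6 libraries of about 50 islets each, amplified by 12 PCR cycles and read as 50 bp pairs, per the labels' protocols. The authors deposited 1 list of called peaks for each library, and the value of each peak was read as a −log10 q-value, since the smallest is 1.30 to 1.32 in the 6 lists, which have no header. The submitters' processing notes list MACS2 2.1.1, BWA 0.7.10, SAMtools, Trimmomatic and FastQC but give no settings. These notes name hg38 and GRCh38 for mouse samples, and coordinates were treated as GRCm38 because peaks lay at gene ends more often than after a shift of 100000 bp in each library, least so in knockout-Acsl4 2. Coordinates are 1-based.

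Genes were taken from the RefSeq table of GRCm38.p6, and promoters from a set of RefSeq promoter sequences with an entry for 56 members. Rab2a, Rab4a, Rab7b, Rab18, Rab26, Rab27b, Rab30, Rab36, Rab37, Rab38, Rab44, Rab11fip1 and Rab11fip4 had no entry in that set. This is a gap of the set used and does not mean that these genes lack an annotated start. A peak marked a gene by an overlap of at least 1 bp with a window of 1000 bp on either side of a gene end, which was tested on simulated peaks. No test across genes was run. The members, classes and lists were chosen with earlier results of these data known. Named were members marked in 3 or more libraries, granule Rabs, members with a pattern between groups, the rest by class, and up to 4 genes per other list plus those with a pattern. Usp6nl, Rabgap1, Rabgap1l, Rims2, Sytl4 and Myrip fall outside that rule and were named after their values were seen. Promoters of Rab3a and Rab3d stand in for that of Rab26, the granule Rab marked most often. The CpG ratio of 0.6 and the single-library comparison were chosen after the data were seen. Shares have exact Clopper-Pearson intervals of 95%. Alternatives were windows of 500 and 3000 bp, annotated starts only, 50% of the peak inside the window, the better 50% of each list, equal lists, autosomes, GTPases only, unshared ends, leaving out each library and pairing by replicate number. Calculations used Python 3.11.15, pandas 2.3.3 and scipy 1.17.1.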

Additional observations from a re-analysis of the deposited data

How the results depend on the processing

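The lists differ in length and in the share of peaks at gene ends, and the read depth behind a missing peak is unknown. For knockout-GFP against control-GFP, the knockout-only count was 0 and became 1 with the better 50% of each list and 9 with only control-GFP 1 and knockout-GFP 2 (chosen after seeing the data), and 0 to 10 when leaving out each library in turn. The control-only count was 0 and became 4 with those 2 libraries and 0 to 3 when leaving out each library. The 10 arose without control-GFP 1, the 9 without knockout-GFP 1 and the 3 without control-GFP 2. In every comparison, leaving out a library can only keep or raise such a count. The shares over all genes with a library left out were not computed. For knockout-Acsl4 against knockout-GFP, the knockout-GFP-only count of 8 became 1 at equal list lengths and 4 with unshared gene ends. It ran from 9 to 22 when leaving out each library, at 22 without knockout-GFP 1 and 13 without knockout-Acsl4 1. The mean difference in the number marked, knockout-Acsl4 minus knockout-GFP, was -19 and became -4.5 at equal list lengths, where fewer peaks are kept. For knockout-Acsl4 against control-GFP, the control-only count of 3 became 1 with unshared gene ends, and ran from 3 to 17 when leaving out each library, at 17 without control-GFP 2. The mean difference between general trafficking and granule Rabs, 10.4 points, became 16.6 at 500 bp, 15.8 at annotated starts only and 17.7 with the Rab3 and Rab27 genes only, but 6.58 ± 9.20 with the better 50% of each list and 8.95 ± 7.56 at 3000 bp, both with trafficking Rabs higher in 5 of 6 libraries. It ran from 9.07 to 11.7 when leaving out each library and was 12.9 in the 3 libraries with most genes marked (chosen after seeing the data). Apart from shorter lists and fewer libraries, the cause of these changes was not tested. Pairing libraries by replicate number (replicate block) gave differences of 8 ± 22.6, -19 ± 11.3 and -11 ± 11.3 members (SD over 2 pairs) for the 3 comparisons in that order. Leaving out each library moved these differences from -1.5 to 17.5, from -25.5 to -12.5 and from -20.5 to -1.5. Deviations of libraries with the same number correlated at -0.03, 0.22 and 0.16 over the members. Nothing in the labels ties the numbers, and the title of knockout-Acsl4 2 carries the tag KA3, which differs from its replicate number. Libraries of the same number were therefore not treated as pairs.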
